A study of Mus musculus with 10 samples.

Results

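The transcripts of the proteasome were followed in mammary tumours with and without the gene for RHBDL4, a protease of the rhomboid family in the membrane of the endoplasmic reticulum. Members were the protein-coding genes whose mouse symbols run from Psma to Psmd with a number, together with Psme1 to Psme4. Psmb8 and Psmb9 were left out of the rule. This gave 41 of the 57010 genes in the table, namely 17 genes of the 20S core (8 of the alpha ring and 9 of the beta ring), 9 of the base, 8 of the lid, 3 chaperones of base assembly and 4 activators. Knockout tumours carried the genotype PyMT with RHBDL4 -/- and wild-type tumours PyMT with RHBDL4 +/+, with 5 libraries of each. The labels give no replicate numbers, and those used here follow the order of the samples within each group. All tumours were untreated and were taken 5 weeks after tumour onset. In both groups the PyMT oncogene was under the MMTV promoter, which is active mainly in mammary epithelium, and RNA came from whole tumour tissue, so that stroma, vessels and immune cells could contribute to every value. Each library carried a batch label of its own. In 3 pairs the library names share a leading number, which concerns replicates 3 and 4 of the knockout and, of the wild type, replicates 1 with 2 and 3 with 4. No label ties a library to an animal, so the p-values measure only how these samples vary, which may be partly technical. If libraries with the same leading number came from the same animal, they would not be independent. In that case the SEs and p-values given here could be too small.

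The proteasome degrades proteins marked with ubiquitin. Its 20S core is a barrel of stacked rings, with alpha rings outside that gate the entry and beta rings inside that carry the cutting sites. The 19S cap is made of a base, whose ATPases unfold the substrate and thread it into the core, and a lid, whose subunit Psmd14 removes the ubiquitin chain. Other activators (Psme1 to Psme4) can dock on the core in place of the cap. Interferon induces an alternative set of catalytic subunits, of which Psmb10 is the member that takes the place of Psmb7. The proteasome is a route of disposal for misfolded proteins exported from the endoplasmic reticulum, the compartment in which RHBDL4 resides.

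Rhbdd1, which encodes RHBDL4, was measured at 22.3, 15.1, 17.3, 13.2 and 16.8 CPM in knockout replicates 1 to 5 and 45.4, 38.6, 33.7, 33.5 and 25.02 CPM in wild-type replicates 1 to 5, where CPM are a gene's counts divided by its library's TMM-scaled size in M (mega) counts. All knockout values were lower than all wild-type values. The log2 fold change (knockout minus wild type) was -1.05 ± 0.20 (SE) with an adjusted p of 0.669 (edgeR, Benjamini-Hochberg), and -1.14 ± 0.16 (SE) without wild-type replicate 5, with an adjusted p of 0.113 (edgeR, Benjamini-Hochberg). DESeq2 gave adjusted p-values of 0.000309 and 7.44e-07 for the same contrasts. Libraries held between 25.7 and 43.3 M counts. Wild-type replicate 5 stood apart from its label. There, 15 markers of luminal epithelium took 0.00891% of all counts against 0.526 to 0.880% in the other 9 libraries, while 15 skeletal muscle markers took 9.46% against at most 0.183% and 12 adipocyte markers 1.97% against at most 0.367%. Counts and medians over the members and their parts are therefore given with and without that library. Most marker and pathway lists and many single fold changes are given without it only.

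No proteasome gene passed an adjusted p of 0.05 between knockout and wild-type tumours, and the measured differences were small. A lack of calls does not show that levels were alike. Of the 41 members, 39 passed the filter on low counts in both fits. With all 10 libraries, 0 of 39 members were called, where edgeR called 0% of all 18577 tested genes. Without wild-type replicate 5, 0 of 39 members were called, where edgeR called 0.0105% of all 19016 tested genes (2 genes). DESeq2 and limma-voom also called 0 members in both sets of libraries, where they called 0.312% and 0.0915% of the tested genes with 10 libraries and 2.98% and 0.752% without wild-type replicate 5. At an unadjusted p under 0.05, 6 of 39 members were lower and 0 higher in knockout with all libraries, against 4.44% lower and 2.56% higher among all tested genes. The set without wild-type replicate 5 again had 6 lower and 0 higher, against 5.85% and 5.74% of all tested genes.

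Most members had a log2 fold change below 0. With 10 libraries this was so for 32 of 39 members, against 56.2% of all tested genes, and the median over members was -0.18 against -0.06 over all tested genes. With wild-type replicate 5 left out it was so for 28 of 39 members, against 46.8% of all tested genes, and the medians were -0.11 and 0.03. The 7243 tested genes within the range of mean levels spanned by the members had a median of 0.01 in the latter set. Members were not independent of each other, since many deviated together within a library. On the TMM scale of all 10 libraries, all 39 tested members lay above their own mean over the 9 libraries in wild-type replicate 1. In knockout replicate 2 only 3 of 39 did. Several of these deviations were near 0. On the scale of the 9 libraries, Psmb6, Psmd3 and Psmd9 lay just below 0 in wild-type replicate 1 (-0.011, -0.015 and -0.0084). Psmd9 lay just above 0 in knockout replicate 2 on that scale, at 0.0017. Without wild-type replicate 1 as well as replicate 5, 25 of 39 members were below 0. In whole tissue, fewer cells of a type and less RNA per cell cannot be told apart.

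Markers of proliferation and of other cell types were summed in the same libraries. Over 20 proliferation genes the sums ran from 802 to 1445 CPM in knockout and from 1658 to 2154 CPM in wild-type libraries without replicate 5, and all 20 genes had a log2 fold change below 0 in that set, against 46.8% of all tested genes. Of these, edgeR called 1, against 0.0105% of all tested genes, and their median was -0.78. Wild-type replicate 5 had a sum of 172 CPM over the same 20 genes. Summed adipocyte markers ran from 85.1 to 3333 CPM in knockout and from 33.3 to 545 CPM in the same wild-type libraries, and 2 of the 12 markers were at 0 in at least 1 of the 9 libraries. Fibroblast markers ran from 3347 to 6995 CPM and from 178 to 5709 CPM, the lowest sum being that of wild-type replicate 1. Summed luminal markers ran from 4905 to 8707 CPM and from 5303 to 6929 CPM, so the groups overlapped there. Markers of T and NK cells were low in all libraries, but their sums did not overlap, at 9.73 to 18.3 CPM in knockout and 6.69 to 9.09 CPM in the same wild-type libraries. Summed skeletal muscle markers ran from 11.1 to 1807 CPM in knockout, the highest being replicate 4, and from 10.3 to 108 CPM in those wild-type libraries. The part of cell make-up and of proliferation in the proteasome values was not tested.

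**Figure D1:**
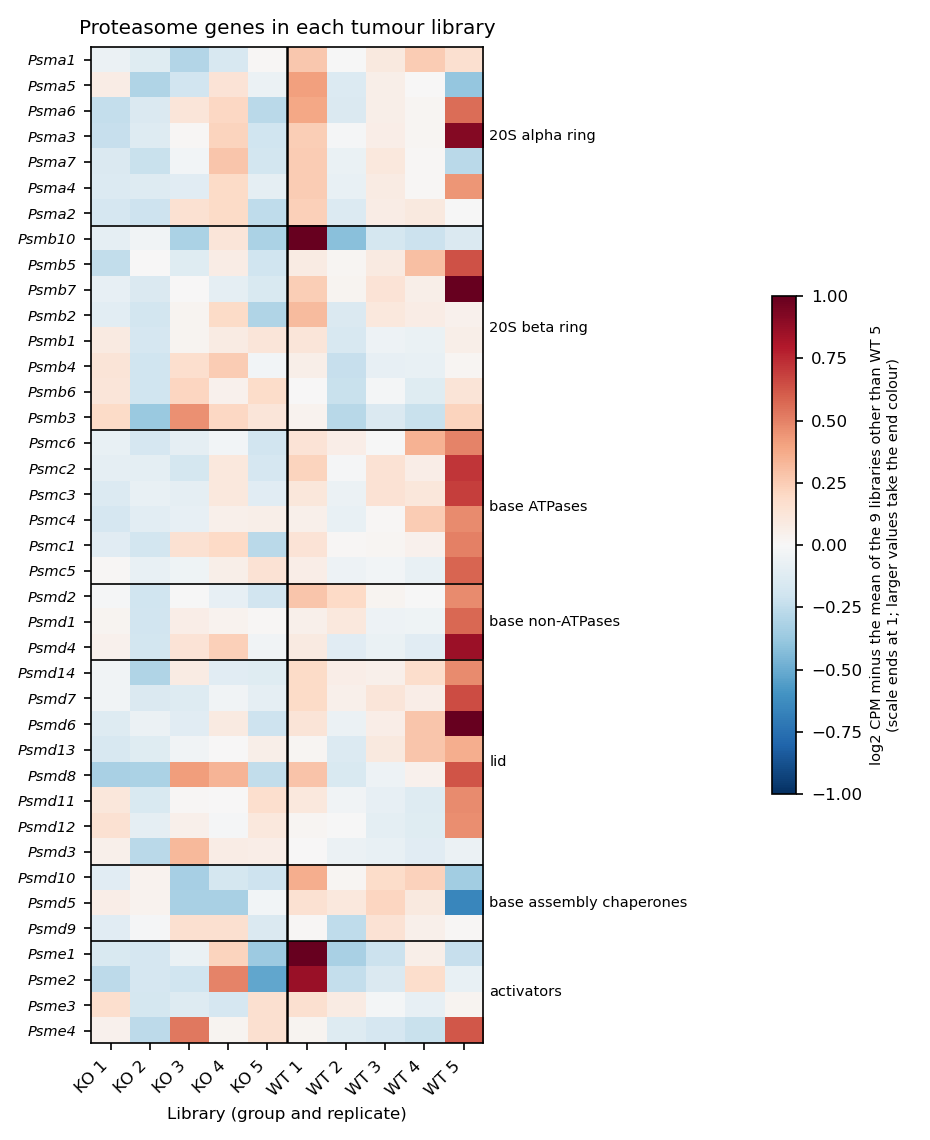
Level of the 39 tested proteasome genes in each library (columns, knockout left and wild type right of the vertical line), as log2 CPM minus the gene's mean over the 9 libraries other than wild-type replicate 5. Genes are grouped by part of the particle. On this scale, that of all 10 libraries, wild-type replicate 1 is above the mean in all 39 genes and knockout replicate 2 in 3, some by values near 0.

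By part, the medians of the log2 fold changes were close to each other. With 10 libraries they were -0.15 for the 20S core, -0.20 for the base, -0.17 for the lid, -0.12 for the assembly chaperones and -0.15 for the activators. With wild-type replicate 5 left out they were -0.12 for the core, -0.09 for the base, -0.06 for the lid, -0.23 for the chaperones and -0.17 for the activators. The core median of this set became -0.044 when wild-type replicate 1 was left out as well, -0.082 without knockout replicate 1 and -0.20 without knockout replicate 4. The base median became -0.15 without wild-type replicate 2. The lid median ran from -0.12 without wild-type replicate 2 to -0.0043 without knockout replicate 1, and leaving out any library but knockout replicate 5 or wild-type replicate 3 moved it by over 1.5 times. With all 10 libraries the core median became -0.054 without wild-type replicate 1 and -0.094 without knockout replicate 5. No order among the parts is read from these medians. In the mean log2 CPM of a part, knockout libraries had 6.84 ± 0.12 (SD, n = 5) for the core against 6.93 ± 0.18 (SD, n = 4) in wild type without replicate 5. The same values were 7.29 ± 0.082 and 7.39 ± 0.053 for the base, and 7.10 ± 0.10 and 7.16 ± 0.069 for the lid. The difference was smaller than the larger of the group SDs for the core and the lid and larger than both SDs for the base.

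**Figure D2:**
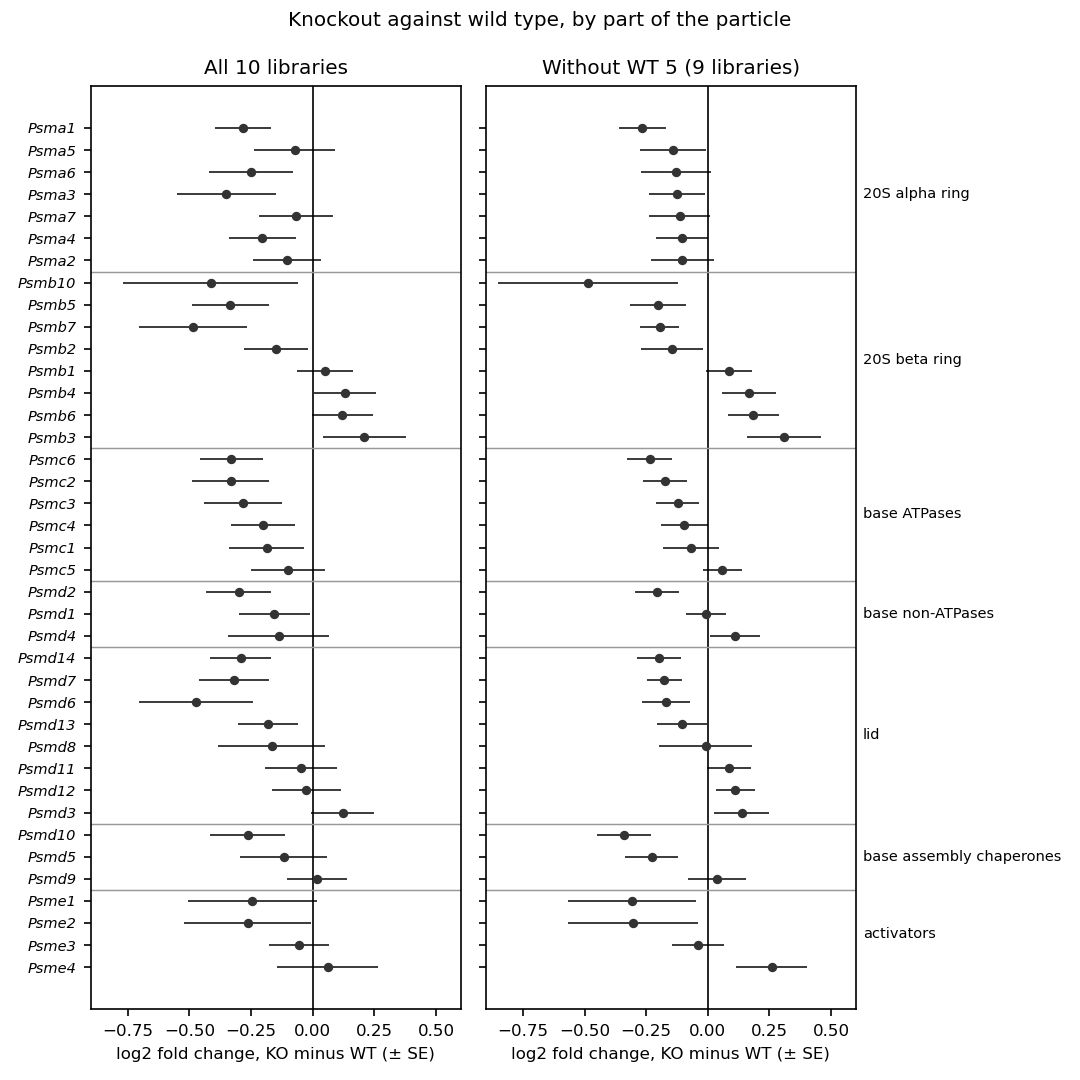
Log2 fold change of each tested member (knockout minus wild type, edgeR, bars ± 1 SE) by part of the particle, with all 10 libraries on the left and without wild-type replicate 5 on the right. All 7 alpha ring genes lie below 0 in both panels, while 4 of 8 beta ring genes lie above 0.

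The alpha ring was the part in which every tested gene lay on the same side in both sets of libraries. None of these genes lies on chromosome 11, where 7 of 8 members were above 0 without wild-type replicate 5. Of the 31 members of any part on other chromosomes, 27 were below 0 in that set. The side is thus not particular to the alpha ring, and the part of the chromosomes in it was not tested. All 7 tested genes had a log2 fold change below 0, from -0.35 to -0.07 with 10 libraries and from -0.27 to -0.10 without wild-type replicate 5. In wild-type replicate 1 the median deviation of these genes from their mean over the 9 libraries was 0.26 on the log2 scale. Psma1 had the smallest p of the ring. It was measured at 170.3, 164, 145, 159 and 179 CPM in knockout replicates 1 to 5 and 215, 178, 191, 212 and 198 CPM in wild-type replicates 1 to 5. The knockout values lay below the wild-type values except that knockout replicate 5 was above wild-type replicate 2. The log2 fold change without wild-type replicate 5 was -0.27 ± 0.095 (SE), with an adjusted p of 0.354 (edgeR, Benjamini-Hochberg). Psma3 was measured at 135, 145, 159, 184 and 138 CPM in knockout replicates 1 to 5 and 188, 157, 166, 161 and 298 CPM in wild-type replicates 1 to 5. Wild-type replicate 5 was the highest by far, and the fold change of Psma3 went from -0.35 to -0.12 when it was left out. Psma5 was measured at 134, 104, 112, 140.3 and 123 CPM in knockout replicates 1 to 5 and 170.1, 116, 133, 128 and 97.5 CPM in wild-type replicates 1 to 5. Here wild-type replicate 5 was the lowest library and wild-type replicate 1 the highest, and the log2 fold change of Psma5 was -0.07 with 10 libraries and -0.14 without replicate 5. The 10-library value for Psma5 became 0.0475 when wild-type replicate 1 was left out. Psma8, the alpha subunit of the testis, had 43 counts over all libraries and at most 8 in 1 library, and was not tested.

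The promoters of the alpha ring genes are shown because these genes lay on the same side in both fits. A CCAAT box, the site read by the factor NF-Y, was sought on both strands in the RefSeq windows of GRCm38.p6 that run from 250 bases before to 50 bases after each gene's start. A window was at hand for 34 of the 41 members (not for Psma8, Psmb1, Psmb2, Psmb7, Psmc3, Psmd3 and Psmd7). CCAAT or its reverse complement was present in 5 of 7 alpha ring windows and in 13 of 34 member windows (38.2%), against 42.3% of all 17491 windows and 42.4% of those of 11300 tested genes. The 4 stretches below are written 5′ to 3′ along the gene, with the box in capitals (ATTGG where it lies on the opposite strand). They lie at chr7:114276213-114276267 on the minus strand for Psma1, chr13:14613163-14613217 on the plus strand for Psma2, chr12:55384061-55384115 on the plus strand for Psma6 and chr2:180042631-180042685 on the minus strand for Psma7.
Psma1: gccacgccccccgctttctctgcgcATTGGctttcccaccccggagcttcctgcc
Psma2: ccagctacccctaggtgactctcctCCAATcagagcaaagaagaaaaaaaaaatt
Psma6: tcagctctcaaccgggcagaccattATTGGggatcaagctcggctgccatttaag
Psma7: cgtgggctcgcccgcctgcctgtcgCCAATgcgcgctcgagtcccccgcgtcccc
A match describes the letters only, and the share among all 34 member windows was near the share among all windows. The difference of the alpha ring from that share was not tested. Psma1 and Psma6 each hold a further box, 98 and 29 bases before the start. Psma3, with a box 139 bases before the start, is not shown.

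The beta ring was split. Of its 8 tested genes 4 had a log2 fold change below 0 and 4 above 0 in both sets of libraries, with medians of -0.05 and -0.03. Those above 0 lie on chromosomes 11 (Psmb3 and Psmb6), 3 (Psmb4) and 17 (Psmb1). The other genes there had median differences of 0.15, 0.08 and 0.13 without wild-type replicate 5. Psmb5, Psmb7, Psmb2 and Psmb10 lie on chromosomes 14, 2, 4 and 8, with medians of -0.12, -0.05, -0.04 and -0.03. The part of the chromosomes in the split was not tested. The 3 constitutive catalytic subunits did not lie on the same side of 0. Psmb5, which carries the chymotrypsin-like site, was measured at 18.8, 22.4, 20.6, 23.5 and 19.5 CPM in knockout replicates 1 to 5 and 23.6, 22.6, 23.7, 27.5 and 34.7 CPM in wild-type replicates 1 to 5. Its knockout values ran up to that of replicate 4, inside the wild-type range, and the log2 fold change was -0.33 ± 0.16 (SE) and -0.20 ± 0.11 (SE) without wild-type replicate 5, with adjusted p-values of 0.669 and 0.524 (edgeR, Benjamini-Hochberg). Psmb5 shares 54.1% of its 50-base stretches with other genes of the GENCODE M21 annotation, mostly Gm3375, to which 9129 counts were assigned over all libraries against 7825 for Psmb5, so its level is uncertain. Psmb6, which carries the caspase-like site, was measured at 160.4, 129, 172, 152 and 168 CPM in knockout replicates 1 to 5 and 148, 126, 146, 136 and 162 CPM in wild-type replicates 1 to 5. The groups overlapped, and the log2 fold change of 0.18 ± 0.10 (SE) without wild-type replicate 5 was on the other side of 0, with an adjusted p of 0.521 (edgeR, Benjamini-Hochberg). Psmb7, which carries the trypsin-like site, was measured at 57.8, 55.4, 61.4, 57.7 and 55.0 CPM in knockout replicates 1 to 5 and 72.7, 62.3, 67.4, 63.7 and 136 CPM in wild-type replicates 1 to 5. On this scale every knockout library was below every wild-type library, but wild-type replicate 5 was far above all others. The log2 fold change went from -0.49 ± 0.22 (SE) to -0.19 ± 0.079 (SE) without it, with adjusted p-values of 0.669 and 0.396 (edgeR, Benjamini-Hochberg). After the 9 libraries were scaled anew, the groups overlapped for Psmb7. The gene shares 9.26% of its 50-base stretches with Nek6.

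Among the structural beta subunits, Psmb3 had the largest positive value. It was measured at 127, 85.9, 153, 129 and 121 CPM in knockout replicates 1 to 5 and 114, 92.0, 100.4, 95.4 and 130.2 CPM in wild-type replicates 1 to 5. Knockout replicate 3 was the highest and knockout replicate 2 the lowest of all libraries, so that the groups overlapped, and the log2 fold change without wild-type replicate 5 was 0.31 ± 0.15 (SE), with an adjusted p of 0.471 (edgeR, Benjamini-Hochberg). Psmb4 and Psmb1, the other structural subunits above 0, had log2 fold changes of 0.17 and 0.09, and Psmb2 had -0.14 in the same set. Psmb11, the beta subunit of the thymic cortex, had 8 counts over all libraries and was not tested.

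In the base, all 9 genes had a log2 fold change below 0 with 10 libraries, and 7 of 9 without wild-type replicate 5. Psmc6, an ATPase of the ring that threads substrates into the core, was the member of the base with the smallest p. It was measured at 169, 158, 167, 174 and 156 CPM in knockout replicates 1 to 5 and 195, 186, 177, 226 and 250.4 CPM in wild-type replicates 1 to 5. Every knockout library was below every wild-type library, with or without replicate 5. Such an order (every knockout library below every wild-type library) was seen for 3 of 39 members with 10 libraries (Psmb7, Psmc6 and Psmd7), against 1.18% of all tested genes, and for 3 of 39 without wild-type replicate 5 (Psmc6, Psmd5 and Psmd7), against 3.44%. The opposite order was seen for 0 members, against 0.807% and 2.00%. For Psmc6 the log2 fold change was -0.33 ± 0.13 (SE) and -0.24 ± 0.092 (SE), with adjusted p-values of 0.669 and 0.378 (edgeR, Benjamini-Hochberg).

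Psmd2, a scaffold of the base that binds ubiquitin-like domains, was measured at 243, 213, 244, 232 and 214 CPM in knockout replicates 1 to 5 and 296, 281, 249, 244 and 339 CPM in wild-type replicates 1 to 5. Knockout replicate 3 reached the level of wild-type replicate 4, the lowest of its group, and the log2 fold change without wild-type replicate 5 was -0.21 ± 0.089 (SE), with an adjusted p of 0.421 (edgeR, Benjamini-Hochberg). Psmc2, another ATPase, was measured at 135, 134, 127, 155 and 128 CPM in knockout replicates 1 to 5 and 167, 142, 159, 150.2 and 235 CPM in wild-type replicates 1 to 5. Knockout replicate 4 lay within the wild-type range, and leaving out wild-type replicate 5 took the log2 fold change from -0.33 to -0.17. Psmd4, a receptor for ubiquitin chains, was measured at 132, 112, 140.5, 151 and 124 CPM in knockout replicates 1 to 5 and 136, 118, 122, 118 and 231 CPM in wild-type replicates 1 to 5. Apart from wild-type replicate 5 the groups overlapped throughout, and the sign of the log2 fold change turned from -0.14 to 0.11 without that library. Psmd1, the largest scaffold of the base, lies 3.62 Mb from Rhbdd1 on chromosome 1 in GENCODE M21 and had -0.01 ± 0.081 (SE).

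In the lid, 7 of 8 genes had a log2 fold change below 0 with 10 libraries and 5 of 8 without wild-type replicate 5. Psmd7, the partner of the deubiquitinase Psmd14, was measured at 165, 153, 154, 165 and 158 CPM in knockout replicates 1 to 5 and 193, 174, 183, 177 and 265 CPM in wild-type replicates 1 to 5. The groups did not overlap in either set, the knockout values lay close together, and the log2 fold change was -0.32 ± 0.14 (SE) and -0.18 ± 0.072 (SE), with adjusted p-values of 0.669 and 0.4 (edgeR, Benjamini-Hochberg). Psmd14 itself was measured at 106, 88.1, 115, 101 and 100.2 CPM in knockout replicates 1 to 5 and 124, 114, 113, 123 and 151 CPM in wild-type replicates 1 to 5. Knockout replicate 3 lay above the lowest wild-type libraries, and the log2 fold change was -0.20 ± 0.09 (SE) without wild-type replicate 5, with an adjusted p of 0.44 (edgeR, Benjamini-Hochberg). Psmd6, a structural subunit, was measured at 92.4, 97.1, 93.7, 108 and 87.7 CPM in knockout replicates 1 to 5 and 110.4, 97.1, 106, 122 and 229 CPM in wild-type replicates 1 to 5. Wild-type replicate 5 was the highest by far, and the log2 fold change went from -0.47 to -0.17 without it. The remaining lid genes with values above 0 in the latter set were Psmd3, Psmd11 and Psmd12, at 0.14, 0.09 and 0.11.

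The 3 chaperones that help to put the base together and are not part of the finished particle included the member with the smallest p in the set without wild-type replicate 5. Psmd10, also known as gankyrin, was measured at 28.9, 32.1, 24.8, 27.6 and 27.1 CPM in knockout replicates 1 to 5 and 40.2, 31.6, 35.5, 36.8 and 24.6 CPM in wild-type replicates 1 to 5. Knockout values lay below those of wild-type replicates 1, 3 and 4, and wild-type replicate 5 was the lowest of all libraries. The log2 fold change was -0.26 ± 0.15 (SE) with 10 libraries and -0.34 ± 0.11 (SE) without wild-type replicate 5, with an unadjusted p of 0.0115 and an adjusted p of 0.319 in the latter (edgeR, Benjamini-Hochberg). With 10 libraries the unadjusted p of Psmd10 was 0.112 in edgeR, and Psmc6 had the smallest of the members, at 0.0275. Psmd5 was measured at 79.1, 77.1, 60.2, 60.3 and 74.0 CPM in knockout replicates 1 to 5 and 83.6, 81.1, 87.4, 80.4 and 47.9 CPM in wild-type replicates 1 to 5. Knockout replicates 3 and 4, which share a leading number, were lower than the other knockout libraries, and all knockout libraries lay between wild-type replicate 5 and the other wild-type libraries. For Psmd5 the log2 fold change was -0.12 with 10 libraries and -0.23 ± 0.11 (SE) without wild-type replicate 5, with an adjusted p of 0.453 in the latter (edgeR, Benjamini-Hochberg). Psmd9 was measured at 36.9, 39.6, 44.7, 44.7 and 36.1 CPM in knockout replicates 1 to 5 and 40.2, 33.4, 44.3, 41.4 and 40.3 CPM in wild-type replicates 1 to 5. The groups overlapped throughout, and the log2 fold change of Psmd9 was 0.04 ± 0.12 (SE).

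The members that interferon induces were set apart by 1 wild-type library. Psmb10 was measured at 30.9, 32.1, 26.5, 35.8 and 26.5 CPM in knockout replicates 1 to 5 and 90.3, 24.6, 29.2, 28.4 and 29.8 CPM in wild-type replicates 1 to 5. Wild-type replicate 1 was far above all others, and the remaining libraries of both groups lay within 24.6 to 35.8 CPM. The log2 fold change was -0.49 ± 0.37 (SE) without wild-type replicate 5 (adjusted p of 0.631, edgeR, Benjamini-Hochberg) and 0.16 when replicate 1 was left out as well. Psme1, which with Psme2 forms the ring-shaped activator PA28, was measured at 127, 126, 135, 165 and 110.2 CPM in knockout replicates 1 to 5 and 283, 113, 122, 148 and 121 CPM in wild-type replicates 1 to 5. Wild-type replicate 1 was again the highest, and the log2 fold change of -0.31 ± 0.26 (SE) (adjusted p of 0.67, edgeR, Benjamini-Hochberg) became 0.07 when that library was left out as well. Psme2 was measured at 112, 120.3, 117, 190.0 and 94.2 CPM in knockout replicates 1 to 5 and 245, 115, 122, 152 and 128 CPM in wild-type replicates 1 to 5. Wild-type replicate 1 was the highest and knockout replicate 4 the next, and the log2 fold change was -0.30 ± 0.26 (SE) (adjusted p of 0.679, edgeR, Benjamini-Hochberg) and -0.02 without wild-type replicate 1. The median of the 4 activators changed sign with that library, from -0.17 to 0.03. Psme2 shares 28.3% of its 50-base stretches with Psme2b.

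The same libraries were high in other genes of the interferon response. The summed level of 15 such genes was 6652 CPM in wild-type replicate 1 and 1842 CPM in knockout replicate 4, against 147 to 800 CPM in the other 7 libraries without wild-type replicate 5 and 240 CPM in that library. Of the 15 genes, 14 were highest in wild-type replicate 1 among the 9 libraries, against 14.9% of all tested genes. Markers of T and NK cells summed to 6.69 CPM in that library, the lowest of the 9, where the range was up to 18.3 CPM. Macrophage markers summed to 368 CPM there, within the range of 227 to 523 CPM. Per 100 CPM of Psmb7, the subunit it replaces, Psmb10 stood at 124 in wild-type replicate 1, at 39.5 to 62.1 in the other 8 libraries and at 21.9 in wild-type replicate 5. These ratios are between counts that were not divided by gene length.

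**Figure D3:**
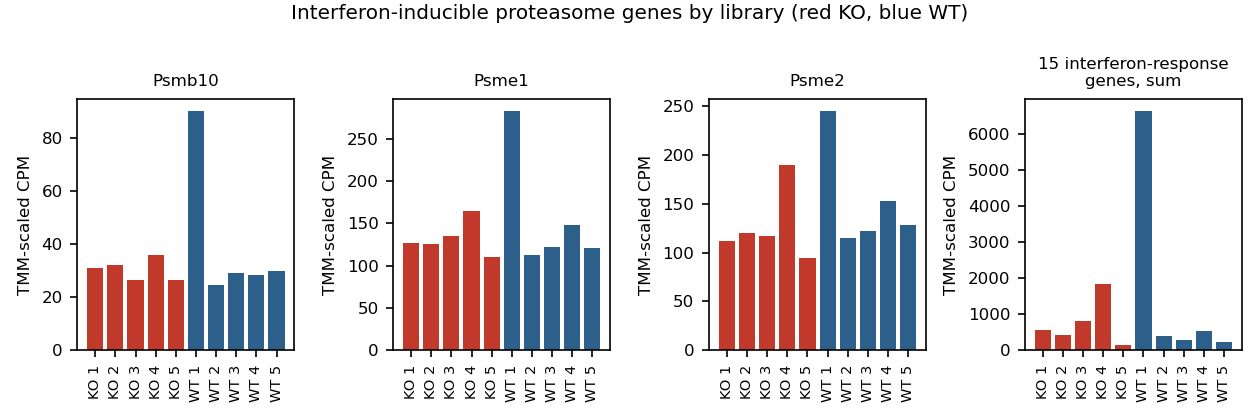
Level (TMM-scaled CPM) of the interferon-inducible members Psmb10, Psme1 and Psme2 and the sum of 15 interferon-response genes in each library, 1 bar per library. Wild-type replicate 1 is the highest and knockout replicate 4 the next in all panels.

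The remaining activators did not follow that order. Psme3, the nuclear activator PA28 gamma, was measured at 162, 128, 132, 128 and 161 CPM in knockout replicates 1 to 5 and 161, 152, 142, 137 and 147 CPM in wild-type replicates 1 to 5. The groups overlapped, and the log2 fold change was -0.04 ± 0.11 (SE) without wild-type replicate 5. Psme4, the activator PA200, was measured at 168, 136, 235, 166 and 182 CPM in knockout replicates 1 to 5 and 166, 149, 145, 140.2 and 251 CPM in wild-type replicates 1 to 5. Knockout replicate 3 and wild-type replicate 5 were the highest, and the log2 fold change went from 0.06 ± 0.21 (SE) to 0.26 ± 0.14 (SE) without wild-type replicate 5, with adjusted p-values of 0.933 and 0.52 (edgeR, Benjamini-Hochberg).

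In wild-type replicate 5, the library rich in muscle and adipocyte transcripts, the parts of the particle did not deviate alike. The members took 0.413% of all counts there, against 0.532 to 0.643% in the other libraries. After TMM scaling, which applied a factor of 0.588 to that library and 1.01 to 1.10 to the others, the same members summed to 7097 CPM there against 4841 to 6382 CPM. On the scaled values 22 of 39 members were above all 9 other libraries and 4 below, where 32.3% of all tested genes were above and 36.5% below. The median deviation from the mean of the other 9 libraries was 0.57 on the log2 scale for the base, 0.47 for the lid, 0.13 for the core and -0.34 for the assembly chaperones. Of the chaperones, Psmd5 and Psmd10 were below the mean of the other libraries and Psmd9 was at 0.01. The direction for the sum and for these deviations depends on the scaling, which shifts all members of a library alike. The labels give mammary tumour for that library, as for the others.

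In several libraries, members on the same chromosome deviated to the same side. In the GENCODE M21 annotation 8 tested members are on chromosome 11 (Psmb3, Psmb6, Psmc5, Psmd3, Psmd11, Psmd12, Psme3 and Psme4). All 8 were above their own mean over the 9 libraries in knockout replicates 1 and 5 and 0 of 8 in wild-type replicate 4, while of the other 31 members 6, 5 and 25 were above. The medians of 846 other genes of chromosome 11 with a mean of at least 10 CPM were 0.18, 0.20 and -0.11 in these libraries. On chromosome 14, all 5 members (Psmb5, Psmc6, Psmd6, Psme1 and Psme2) were above their mean in wild-type replicate 4, where the median of 334 other genes was 0.24 and 88.9% of them were above. The 3 members on chromosome 3 (Psma5, Psmb4 and Psmd4) were above in knockout replicate 1, where the median of 495 other genes was 0.20. These libraries were picked after the values were seen. The sign did not follow the chromosome everywhere, since 7 of 8 members on chromosome 11 were above their mean in knockout replicate 4, where the chromosome's median was -0.08.

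The comparison of the groups followed the same division. Without wild-type replicate 5, 7 of the 8 members on chromosome 11 had a log2 fold change above 0, with a median of 0.12, where the other genes of the chromosome had a median difference of 0.15. Of the 31 members elsewhere, 27 were below 0, and the median of the 31 was -0.14. Members with values above 0 outside chromosome 11 were Psmb1 on chromosome 17, Psmb4 and Psmd4 on chromosome 3, and Psmd9 on chromosome 5. The other genes of these chromosomes had median differences of 0.13, 0.08 and -0.01. On chromosome 14 all 5 members were below 0, where the median difference of the other genes was -0.12. When the median log2 fold change of each gene's chromosome was subtracted, which was chosen after seeing the data, 33 of 39 members lay below 0 without wild-type replicate 5 and 31 of 39 with it. The 6 members at an unadjusted p under 0.05 in the set without wild-type replicate 5 (Psma1, Psmb7, Psmc6, Psmd2, Psmd7 and Psmd10) lie on chromosomes 7, 2, 14, 16, 8 and X. The part of a member's chromosome in its fold change was not tested beyond this subtraction.

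**Figure D4:**
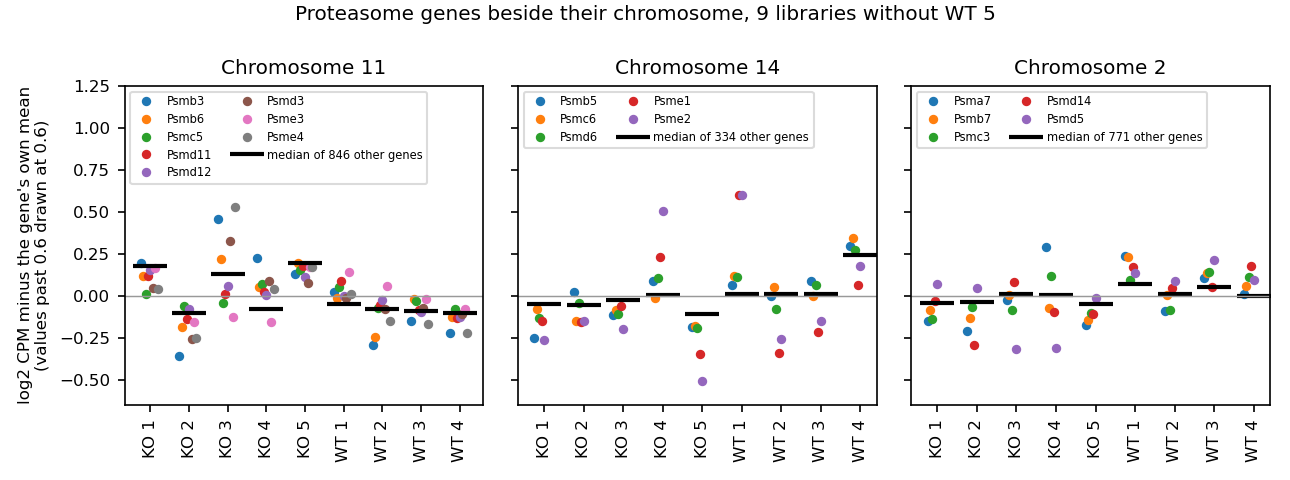
Deviation of each member from its own mean (log2 CPM, points) on chromosomes 11, 14 and 2 in the 9 libraries without wild-type replicate 5, beside the median of the other genes of the chromosome (black bars). On chromosome 11 all 8 members are above 0 in knockout replicates 1 and 5, and on chromosome 14 all 5 members are above 0 in wild-type replicate 4.

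Member levels varied little between libraries. Over the 9 libraries the median SD of log2 CPM was 0.16 for the 39 members, 0.23 for the 7243 tested genes within the members' range of mean levels and 0.38 for all tested genes. The steadiest were Psmc5, at an SD of 0.078, and Psmd1, at 0.082. The most variable were Psmb10 at 0.56, Psme2 at 0.43 and Psme1 at 0.41, the inducible members described above, followed by Psmd8 at 0.29 and Psmb3 at 0.27. Psmd8, a lid subunit, was measured at 139, 140.1, 232, 221 and 147 CPM in knockout replicates 1 to 5 and 212, 157, 168, 179.5 and 269.8 CPM in wild-type replicates 1 to 5. Knockout replicates 3 and 4, which share a leading number, were well above the other knockout libraries and as high as wild-type replicate 1.

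Levels between members were compared per length, as CPM per kb of annotated exon over the 9 libraries. Psma6 was the highest at 146 ± 22.8 CPM per kb (SD, n = 9), followed by Psmc5 at 107 ± 5.75, Psma5 at 97.6 ± 14.6 and Psmc1 at 94.2 ± 10.3. The differences among the latter 3 were smaller than the SD of Psma5. At the lower end were Psmb7 at 18.0 ± 1.71, Psmd5 at 10.5 ± 1.34 and Psmd9 at 5.54 ± 0.562 CPM per kb, so that the assembly chaperones Psmd5 and Psmd9 were the lowest of the tested members. The exon union of a gene includes exons of rare transcripts, and Psma5 shares 50% of its 50-base stretches with other genes, so the order is approximate. The other members with such sharing above 10% were, beside Psmb5 and Psme2, Psmd9 (24.9%), Psmb3 and Psmd2 (17.8% each), Psma3 (15.4%), Psma4 (14.3%) and Psmc1 (14.1%), and their counts are uncertain to the extent that reads were split or dropped.

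**Figure D5:**
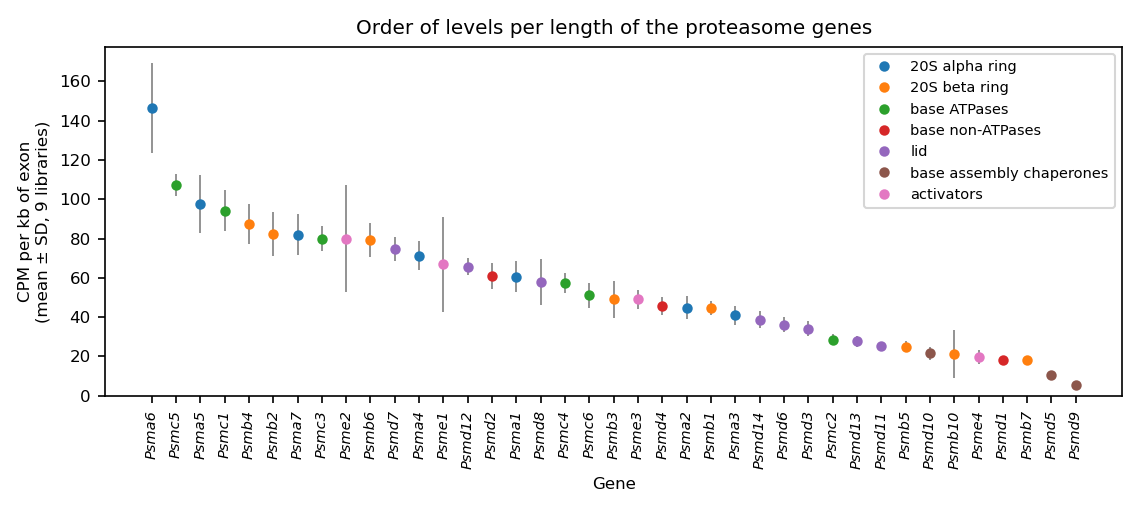
Mean level per length of the 39 tested members in CPM per kb of annotated exon (points, bars ± SD over the 9 libraries without wild-type replicate 5), ordered from high to low and coloured by part. Psma6 is the highest and the assembly chaperones Psmd5 and Psmd9 are the lowest.

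Among genes that work beside the particle, 3 had smaller p-values than any member in the set without wild-type replicate 5. The list of other proteasome components and assembly factors had 20 tested genes, of which 14 were lower and 6 higher in knockout without wild-type replicate 5, with 0 called by edgeR and a median of -0.10. At an unadjusted p under 0.05 there were 5 of 20, against 11.6% of all tested genes. Psmg1, a chaperone of the alpha ring, was measured at 29.8, 29.0, 25.1, 28.2 and 27.0 CPM in knockout replicates 1 to 5 and 35.3, 39.7, 34.8, 35.3 and 23.7 CPM in wild-type replicates 1 to 5. Uchl5, a deubiquitinase that binds the base, was measured at 60.9, 71.5, 59.9, 65.7 and 57.7 CPM in knockout replicates 1 to 5 and 78.6, 81.0, 89.7, 79.8 and 66.7 CPM in wild-type replicates 1 to 5. Usp14, the other deubiquitinase of the base, was measured at 105, 107, 121, 116 and 113 CPM in knockout replicates 1 to 5 and 139.7, 129, 134, 144 and 105 CPM in wild-type replicates 1 to 5. In each of the 3 genes every knockout library was below wild-type replicates 1 to 4, while wild-type replicate 5 lay within or just below the knockout range. The same order was seen for 4 of the 20 genes of the list (the other was Rad23b), against 3.44% of all tested genes. The 3 genes named were picked by their p in the set without wild-type replicate 5, which favours such an order. Without wild-type replicate 5 the log2 fold changes were -0.37 ± 0.09 (SE), -0.36 ± 0.091 (SE) and -0.27 ± 0.079 (SE), with adjusted p-values of 0.284, 0.285 and 0.311 (edgeR, Benjamini-Hochberg). DESeq2 called these 3 genes in that set, with adjusted p-values of 0.00509, 0.0151 and 0.0196, and did not call them with 10 libraries. Since DESeq2 called 2.98% of all tested genes without wild-type replicate 5 against 0.0105% by edgeR, the calls depend on the tool. With 10 libraries the unadjusted p was 0.0893 for Psmg1, 0.0168 for Uchl5 and 0.0977 for Usp14 (edgeR), against 0.0275 for the member Psmc6.

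Transcription of the subunit genes is raised by NRF1, the protein of Nfe2l1, a factor that is anchored in the endoplasmic reticulum and released when proteasome activity falls short. Of 15 tested genes of this and the NRF2 route, 7 were lower and 8 higher in knockout without wild-type replicate 5, with 0 called by edgeR and a median of 0.06. At an unadjusted p under 0.05 there were 2 of 15, near the 11.6% of all tested genes. Nfe2l1 was measured at 313, 254, 272, 211 and 323 CPM in knockout replicates 1 to 5 and 230.3, 229, 199, 203 and 699 CPM in wild-type replicates 1 to 5. Wild-type replicate 5 was the highest by far, and of the other wild-type libraries all lay below 4 of the 5 knockout libraries. For Nfe2l1 the log2 fold change was 0.37 ± 0.13 (SE) without wild-type replicate 5, with an adjusted p of 0.345 (edgeR, Benjamini-Hochberg), and -0.18 with it. The gene is on chromosome 11, whose other genes had a median difference of 0.15. Nfe2l2, the gene of NRF2, was measured at 70.3, 82.6, 90.2, 95.6 and 62.9 CPM in knockout replicates 1 to 5 and 174, 89.8, 95.0, 94.9 and 142 CPM in wild-type replicates 1 to 5. Wild-type replicate 1 was the highest, the groups overlapped, and the log2 fold change without wild-type replicate 5 was -0.48 ± 0.21 (SE), which became -0.20 when replicate 1 was left out as well. Txnrd1, a target of NRF2 picked by its p, had -0.19 ± 0.082 (SE) in the same set. Of the same list, Nqo1 had -0.01 ± 0.27 (SE), Gclm 0.06 ± 0.12 (SE) and Hmox1 0.68 ± 0.51 (SE) there.

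The core of the antioxidant response element, TGACNNNGC, which NRF1 and NRF2 read, was sought in the same promoter windows on both strands. It was present in 6 of 34 member windows (17.6%), against 14.8% of all windows and 16.8% of those of tested genes, so the share among members was near the background. The members were Psmb5, Psmb6, Psmc6, Psmd9, Psmd12 and Psme4, with log2 fold changes of -0.20, 0.18, -0.24, 0.04, 0.11 and 0.26 without wild-type replicate 5, on both sides of 0. The stretches of 4 of them are shown because they belong to genes of the catalytic ring, the base and the chaperones, with the matching letters in capitals (the reverse complement in Psmc6). They lie in GRCm38.p6 at chr14:54618009-54618067 on the minus strand for Psmb5, chr11:70525323-70525356 on the plus strand for Psmb6, chr14:45329574-45329630 on the plus strand for Psmc6 and chr5:123228134-123228189 on the plus strand for Psmd9.
Psmb5: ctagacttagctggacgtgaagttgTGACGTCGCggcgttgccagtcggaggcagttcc
Psmb6: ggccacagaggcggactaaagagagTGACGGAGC
Psmc6: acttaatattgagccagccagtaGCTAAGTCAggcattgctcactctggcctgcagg
Psmd9: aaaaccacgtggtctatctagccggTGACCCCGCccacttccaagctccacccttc
The interferon-stimulated response element (sought by its core) was present in 4 of 34 member windows (11.8%; Psmb3, Psmd4, Psmd9 and Psme1), against 3.94% of all windows. Of the inducible members described above, Psme1 held its match after the start, and Psmb10 and Psme2 held none. The difference from the share among all windows was not tested. A gamma-activated sequence, TTCNNNGAA, was present in 1 of 34 (2.94%, Psmd2), against 8.92%. No window held overlapping matches of different motifs.

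Of the genes that supply and conjugate ubiquitin, 20 were tested, of which 12 were lower and 8 higher in knockout without wild-type replicate 5, with 0 called by edgeR and a median of -0.07. At an unadjusted p under 0.05 there were 2 of 20, near the 11.6% of all tested genes. Ube2n, a ubiquitin-conjugating enzyme, was measured at 74.5, 80.5, 65.5, 74.2 and 74.2 CPM in knockout replicates 1 to 5 and 103, 82.7, 89.96, 88.6 and 115 CPM in wild-type replicates 1 to 5. Ube2l3, another conjugating enzyme, was measured at 107, 119, 84.6, 89.4 and 107 CPM in knockout replicates 1 to 5 and 132, 128, 132, 124 and 213 CPM in wild-type replicates 1 to 5. For both, which are 2 of the 20 genes, every knockout library was below every wild-type library, against 1.18% of all tested genes with 10 libraries and 3.44% without wild-type replicate 5. The log2 fold changes were -0.29 ± 0.093 (SE) and -0.33 ± 0.11 (SE) without wild-type replicate 5, with adjusted p-values of 0.326 and 0.331 (edgeR, Benjamini-Hochberg). Uba1, the main activating enzyme, had -0.19 ± 0.094 (SE) and overlapping groups.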

How the data were processed

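RNA from whole mammary tumours was measured by poly(A) sequencing, stranded per the labels' protocols. The values are counts per gene, deposited by the authors as whole numbers without normalization. Per the submitters' processing notes, the tools were FastQC, STAR, featureCounts and DESeq2 on the build GRCm39. Their versions, the annotation, the strand setting and the handling of multiply mapped reads were not given in the sources used here. Of 57010 genes, 52029 had a symbol, and these took 99.66% of the counts. In each pair of libraries of a group the counts differed by more than sampling noise, with a chi-square of at least 20.8 for each degree of freedom. The lowest value was that of wild-type replicates 3 and 4, which share a leading number. The other pairs that share one were at 98.8 (knockout replicates 3 and 4) and 169.9 (wild-type replicates 1 and 2). Knockout replicates 1 and 5, which share none, were at 43.9.

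The groups were compared with edgeR 4.0.16 (R 4.3.3; quasi-likelihood F-test, TMM scaling, filterByExpr, robust dispersions), with Benjamini-Hochberg adjustment over all tested genes and a threshold of 0.05. The fit was made with all 10 libraries and anew with the 9 without wild-type replicate 5. The SE is the log2 fold change over the root of F. All levels in CPM are on the TMM scale of all 10 libraries. Means and deviations in log2 CPM used a prior count of 2. Those by chromosome and the SDs of log2 CPM used the scale of the 9 libraries, and the others that of all 10. In the main fits, medians of log2 fold changes were taken over the edgeR values. Alternatives were RLE and upper-quartile scaling, DESeq2 1.42.0, limma-voom (limma 3.58.1) with sample quality weights, no filter on low counts, at least 10 counts in every library, libraries with the same leading number summed or held as a block, and leaving out each library. The fits were tested on simulated data. Chromosomes, exon lengths and shared 50-base stretches came from GENCODE M21 (GRCm38), a different build from the counts', and promoter windows from RefSeq (GRCm38.p6).

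The members and gene lists were chosen with earlier results of these data known. Values per library are given for the catalytic, inducible, tissue-restricted and activator genes, Psmd4, Psmd14, the 3 members of each part and up to 3 genes of each pathway list with the smallest p without wild-type replicate 5. Psmd8 was added after its values were seen.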

Additional observations from a re-analysis of the deposited data

Results flagged for a closer look

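Within the groups of 5 libraries, 16 of 68 groups (34 genes) held 1 library that lay further from the rest than a 95% criterion allows. Chance gives about 5% of groups. Wild-type replicate 5 accounted for 10 of them and wild-type replicate 1 for 3.

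In wild-type replicate 5, the values were 136.1 CPM for Psmb7 (62.3 to 72.7 CPM in the other wild-type libraries), 298.3 CPM for Psma3 (157 to 188 CPM), 235.0 CPM for Psmc2 (142 to 167 CPM) and 230.8 CPM for Psmd4 (118 to 136 CPM). They were 229.3 CPM for Psmd6 (97.1 to 122 CPM), 265.2 CPM for Psmd7 (174 to 193 CPM) and 250.5 CPM for Psme4 (140.2 to 166 CPM). Psmd5 was low there, at 47.9 CPM against 80.4 to 87.4 CPM. Nfe2l1 stood at 699 CPM against 199 to 230.3 CPM, and Ube2l3 at 213 CPM against 124 to 132 CPM.

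In wild-type replicate 1, Psmb10 stood at 90.3 CPM against 24.6 to 29.8 CPM, Psme1 at 283 CPM against 113 to 148 CPM and Psme2 at 245 CPM against 115 to 152 CPM. In knockout replicate 4, Psme2 stood at 190.0 CPM against 94.2 to 120.3 CPM and Psmc2 at 155 CPM against 127 to 135 CPM. Psmb11 had 0.0270 CPM in knockout replicate 5, which is 1 count, and was at 0 in the other knockout libraries.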

How the results depend on the processing

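No member was called under any alternative run, and the number of members with a log2 fold change below 0 stayed at 27 to 34 of 39 with 10 libraries and at 25 to 33 without wild-type replicate 5. No scaling moved the median of all tested genes by over 0.1. The counts of called genes over the whole table depended on the tool: with 10 libraries DESeq2 called 54 and limma-voom 17 against 0 by edgeR, and leaving out 1 library gave 0 to 2. Without wild-type replicate 5, DESeq2 called 463, limma-voom 143, upper-quartile scaling 1 and both treatments of the leading number 0, against 2, and leaving out a further library gave 0 to 1. Without wild-type replicate 5, the lid median of -0.06 became -0.16 by limma-voom, -0.10 in sums per leading number, -0.094 with that number as a block and -0.089 less the chromosome medians. There limma-voom also gave -0.14 for the base and -0.023 for the activators. With 10 libraries the lid median of -0.17 became -0.28 in sums and -0.26 with the block, and that of the activators became -0.031 by limma-voom and -0.093 less the chromosome medians. The chaperone median of -0.12 became -0.018 in sums, -0.014 with the block, -0.18 by limma-voom and 0.0094 less the chromosome medians. It ran from -0.23 to -0.062 when 1 library was left out. The cause of these shifts was not tested.

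Among the genes described, directions that turned belonged to those near 0, to those resting on 1 library and to Psmd5. With 10 libraries Psmd5 was at -0.12, and it kept its sign when any library was left out (-0.23 to -0.062). With 10 libraries limma-voom gave 0.066 for Psme3, 0.075 for Psmd4, -0.11 for Psmd9 and 0.48 for Nfe2l1. Sums per leading number gave -0.10 for Psme4, 0.026 for Psmd5 and -0.018 for Psmd9, and the leading number as a block gave -0.038 for Psme4 and -0.014 for Psmd9. Without wild-type replicate 5 limma-voom gave 0.078 for Psme3 and -0.10 for Psmd9. Leaving out 1 library with all 10 gave -0.55 to 0.12 for Psmb10, -0.34 to 0.078 for Psme1 and -0.14 to 0.0475 for Psma5 (the upper value in each without wild-type replicate 1). It gave -0.20 to 0.11 for Psmd4 and -0.31 to 0.37 for Nfe2l1 (the upper value without wild-type replicate 5), -0.058 to 0.26 for Psme4 (the lower without knockout replicate 3) and -0.039 to 0.059 for Psmd9. From the 9 libraries it gave -0.68 to 0.16 for Psmb10, -0.46 to 0.069 for Psme1 and -0.043 to 0.094 for Psmd9.

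No paired analysis was possible because the labels give no replicate numbers and the groups share no leading number.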
